A study of Mus musculus with 9 samples.

Results

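In 3 mouse osteosarcoma lines, 3781 of 124230 open chromatin regions (3.04%) were called in every library of both p53-mutant lines and in no library of the p53-null line. One line carried the R172H substitution in its single remaining copy of the gene (p53R172H/-, here R172H). Another carried R245W in the same way (p53R245W/-, here R245W), and the remaining one lacked p53 on both alleles (p53-/-, here null). Each line came from a primary bone tumour of a mouse and was grown in the same serum-containing medium, and each was profiled in 3 ATAC-seq libraries, a method in which the Tn5 transposase cuts DNA that is free of nucleosomes. A genotype was therefore 1 line, so genotype and line cannot be told apart, and nothing in the labels tells whether the libraries were made from separate cultures. Tests between libraries measure the spread of these libraries only, which may be technical.

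The authors deposited 1 list of peaks per library. All 9 lists were merged at overlaps of at least 1 bp, and a merged region counted as called wherever a library had a peak inside it. The 3781 regions were chosen by the calls in all 9 libraries, and their presence in the mutants and absence in null are a description with no test. Against null alone, 18022 regions (14.5%) had calls in 3 of 3 R172H libraries and 0 of 3 null libraries, and 12456 (10%) had calls in 3 of 3 R245W libraries and 0 of 3 null libraries. The regions described here are the overlap of those 2 sets, which share the null libraries. Among the 42811 regions called in all 6 mutant libraries, 8.83% had no null call.

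Wild-type p53 is a transcription factor that halts the cell cycle or triggers cell death after DNA damage, and it is often lost or mutated in osteosarcomas. The R172H and R245W proteins are missense forms that no longer bind the normal p53 sites well and accumulate in tumour cells. Open chromatin marks promoters, near gene starts, and enhancers, which can lie far away, so a region called in a line is a place where regulatory proteins could reach the DNA.

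The lists held 72840 to 74352 peaks in R172H libraries, 75314 to 79424 in R245W libraries and 65199 to 65942 in null libraries, and their read depth is unknown. Trp53, the p53 gene, had 1 peak at its lower-coordinate end in each R172H library, 2 in each R245W library and 1 or 2 in the null libraries. At the other end each null library had 1 peak and the mutant libraries had 0, and the 1 region assigned to Trp53 was called in null only. The labels do not name the deleted exons, so these peaks are no check of the deletion. Of 25 osteoblast lineage markers, 15 had a peak within 1000 bp of a gene end in all 3 R172H libraries, 17 in R245W and 17 in null. Bglap, Ibsp, Dmp1 and Sost, genes of mature bone cells, were not open in this way in any line. None of the 25 was open at an end in both mutant lines and in no null library.

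Many of the strongest shared regions lay at promoters, and 9 promoters that shared regions overlap are printed to show what kind of DNA they hold. Each line gives the 250 bases before an annotated start, 5′ to 3′ on the gene's strand, from the RefSeq table of GRCm38.p6. Capitals mark CG dinucleotides, the sites of DNA methylation, which are packed together in CpG islands. The set runs from the strongest gene-end regions to developmental genes described further on. The shared region at Dkk2 starts at 132085186, so the first part of its printed sequence lies outside the region.
Cdkn2b, chr4:89311033-89311282, minus strand: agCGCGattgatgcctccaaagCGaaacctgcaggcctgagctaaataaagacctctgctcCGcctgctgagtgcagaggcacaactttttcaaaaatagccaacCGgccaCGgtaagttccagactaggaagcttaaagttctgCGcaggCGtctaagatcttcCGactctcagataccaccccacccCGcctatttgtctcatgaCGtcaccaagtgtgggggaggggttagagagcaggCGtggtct
Minpp1, chr19:32485519-32485768, plus strand: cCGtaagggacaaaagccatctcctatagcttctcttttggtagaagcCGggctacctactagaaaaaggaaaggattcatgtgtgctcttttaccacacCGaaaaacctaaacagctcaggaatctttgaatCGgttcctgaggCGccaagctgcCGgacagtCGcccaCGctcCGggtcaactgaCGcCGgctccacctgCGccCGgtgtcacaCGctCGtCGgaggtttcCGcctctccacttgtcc
Enox2, chrX:49288243-49288492, minus strand: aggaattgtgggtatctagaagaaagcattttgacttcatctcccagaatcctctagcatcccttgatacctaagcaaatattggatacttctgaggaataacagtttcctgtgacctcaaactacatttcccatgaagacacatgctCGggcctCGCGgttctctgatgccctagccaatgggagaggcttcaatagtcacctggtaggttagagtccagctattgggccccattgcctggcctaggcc
Hoxa5, chr6:52204588-52204837, minus strand: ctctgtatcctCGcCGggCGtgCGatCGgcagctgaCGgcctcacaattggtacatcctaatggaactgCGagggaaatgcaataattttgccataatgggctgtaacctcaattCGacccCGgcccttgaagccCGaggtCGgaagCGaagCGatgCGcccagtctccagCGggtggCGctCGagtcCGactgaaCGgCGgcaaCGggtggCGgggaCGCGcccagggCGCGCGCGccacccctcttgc
Hand2, chr8:57320733-57320982, plus strand: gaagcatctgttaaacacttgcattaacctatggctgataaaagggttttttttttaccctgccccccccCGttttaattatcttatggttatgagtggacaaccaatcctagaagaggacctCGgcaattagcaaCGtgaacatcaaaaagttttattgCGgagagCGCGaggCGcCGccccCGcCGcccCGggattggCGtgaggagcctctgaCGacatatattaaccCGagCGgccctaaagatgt
Wnt2, chr6:18030446-18030695, minus strand: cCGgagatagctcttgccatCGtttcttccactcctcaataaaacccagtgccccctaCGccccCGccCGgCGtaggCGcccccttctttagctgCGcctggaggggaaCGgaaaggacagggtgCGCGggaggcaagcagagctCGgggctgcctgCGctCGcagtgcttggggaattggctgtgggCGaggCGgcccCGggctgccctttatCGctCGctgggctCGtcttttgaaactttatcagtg
Dkk2, chr3:132085042-132085291, plus strand: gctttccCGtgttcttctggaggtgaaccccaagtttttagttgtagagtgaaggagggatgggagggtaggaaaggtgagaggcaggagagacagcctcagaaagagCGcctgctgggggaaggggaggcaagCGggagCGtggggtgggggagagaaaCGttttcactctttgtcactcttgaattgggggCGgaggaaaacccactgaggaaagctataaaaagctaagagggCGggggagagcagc
Col4a1, chr8:11312827-11313076, minus strand: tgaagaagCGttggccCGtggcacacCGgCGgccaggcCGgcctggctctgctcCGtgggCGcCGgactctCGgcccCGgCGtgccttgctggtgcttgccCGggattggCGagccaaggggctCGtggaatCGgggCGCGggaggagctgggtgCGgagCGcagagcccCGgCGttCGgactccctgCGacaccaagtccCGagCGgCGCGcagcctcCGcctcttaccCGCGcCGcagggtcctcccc
Aldh1a1, chr19:20601718-20601967, plus strand: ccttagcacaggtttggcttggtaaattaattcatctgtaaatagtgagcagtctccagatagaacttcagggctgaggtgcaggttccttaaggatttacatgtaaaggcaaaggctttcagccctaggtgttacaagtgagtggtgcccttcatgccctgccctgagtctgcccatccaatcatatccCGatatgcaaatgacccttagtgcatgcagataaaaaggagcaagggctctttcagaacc

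The printed promoters were of several kinds. Col4a1, Hoxa5 and Wnt2 had 31, 28 and 20 CG dinucleotides in 250 bases. Minpp1, Hand2 and Cdkn2b followed with 17, 15 and 12. Dkk2 had 7, some of them outside its region. Enox2 had 3 and Aldh1a1 had 1, so promoters poor in CG dinucleotides were also among the regions. In all, 319 RefSeq promoter windows (250 bases before to 50 after a start) of 292 genes overlapped the shared regions, which is 1.67% of the 17491 genes with such a window. Median GC content was 60.7% in these windows, 62.3% in windows of regions called in all 9 libraries and 56.3% over all 21262 windows. At least 10 CG dinucleotides were found in 72.1%, 89.2% and 56.7% of the same 3 sets.

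Short motifs were searched in the 300-base windows on both strands. The GC box GGGCGG, bound by Sp1-type factors, was in 65.2% of the windows in shared regions and in 46.2% of all windows. The letters TATAAA of the TATA box were in 8.15%, against 12.6% of all windows. The AP-1 site TGANTCA was in 7.52%, against 6.99%, CCAAT in 35.1%, against 38.2%, and the E-box CACGTG in 9.4%, against 7.84%. TGTGGT, the core of Runx sites, was in 11%, against 15%, and GGAATG, the core of TEAD sites, was in 10.7%, against 13.6%. The p53 half-site was in 7.21%, against 7.37% of all windows. Windows of regions called in all 9 libraries held the GC box in 69.1%, TATAAA in 6.02%, TGANTCA in 4.55%, CCAAT in 37.9% and CACGTG in 10.4%. They held TGTGGT in 11.1%, GGAATG in 11.3% and the p53 half-site in 6.39%, so the shares of TGTGGT and GGAATG in shared regions were near those of promoters open in every library. Some motifs can overlap in GC-rich DNA, and these shares describe letters in promoters, not bound sites.

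Most of the shared regions lay away from gene ends. Of the 3781, 443 (11.7%) were within 1000 bp of an end of a protein-coding gene, 1933 (51.1%) lay inside a gene's span and 2420 had a gene end within 50000 bp, to which they were assigned. The other 1361 were farther from any gene end. Exons and introns are not given by the gene table used. For regions called in a single line the gene-end share was 4.22% of the 12214 called in R172H only, 6.68% of the 7188 called in R245W only and 3.56% of the 3402 called in null only. Regions shared by null with 1 mutant line gave 5.42% (R245W and null, 7717 regions) and 5.35% (R172H and null, 1066 regions). Regions called in all 9 libraries gave 32%, and all merged regions 13.9%. Promoter windows were overlapped by 7.78% of the shared regions, 0.97 to 2.81% of those 5 other patterns, 24.8% of the regions called in all 9 libraries and 8.72% of all regions. These shares are descriptions of 3 lines and carry no test.

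The regions had a median width of 905 bp after merging, with quartiles at 711 and 1164 bp and extremes of 299 and 2977 bp. Most of them ranked low in the list of at least 1 mutant library. A region's strength was taken as the lowest of its 6 percentiles of the authors' −log10 q within the lists of the mutant libraries, and the median was 24.2, with quartiles at 11.9 and 40.2. Percentile 50 was exceeded in all 6 libraries by 531 regions (14%), against 54.4% of all regions called in all 6 mutant libraries.

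Near the limits of the definition the calls were weak. A further 1594 regions had 5 of 6 mutant calls and no null call. All 6 mutant calls with 1 null call occurred in 1142 regions, where the single null peak had a median −log10 q of 5.33 and a median percentile of 8.61 in its list, and 1415 regions had 2 null calls. Among the 3781 the lowest −log10 q in a mutant library was 1.35, and 26 regions had a lowest value under 2. The nearest null peak was a median of 12361 bp away, and 59 regions (1.56%) had one within 500 bp. For regions called in R172H only and in R245W only these median distances were 10394 and 10428 bp.

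The strongest shared region was the promoter of Cdkn2b, which encodes the cyclin-dependent kinase inhibitor p15INK4b (chr4:89310183-89311474, GRCm38). Its −log10 q was 335, 316 and 331 in R172H libraries and 356, 392 and 389 in R245W libraries. Every library placed it far above its typical peak, with a lowest percentile of 96.5. The neighbouring Cdkn2a, which encodes p16INK4a and the p53 activator ARF, had a region at a gene end with 251, 282 and 247 in R172H libraries and 163, 180.5 and 153 in R245W libraries. A −log10 q also depends on depth, which is unknown, so higher values in a line are not by themselves stronger opening. At this region the authors' fold over background was 12.3, 12.8 and 12.5 in R172H libraries and 13.4, 12.9 and 12.5 in R245W libraries, which did not follow the −log10 q. A second Cdkn2a promoter region was weaker, with 53.6, 47.6 and 44.1 in R172H libraries and 67.5, 69.2 and 59 in R245W libraries.

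On chromosome 19 the promoter of Minpp1, an inositol polyphosphate phosphatase, gave 242, 249 and 242 in R172H libraries and 209, 253 and 253 in R245W libraries. Atad1, a mitochondrial ATPase gene, had 273, 275 and 219 in R172H libraries and 159, 188 and 183 in R245W libraries. The 2 lines overlapped at Minpp1, and at Atad1 every R172H value lay above every R245W value.

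**Figure D1:**
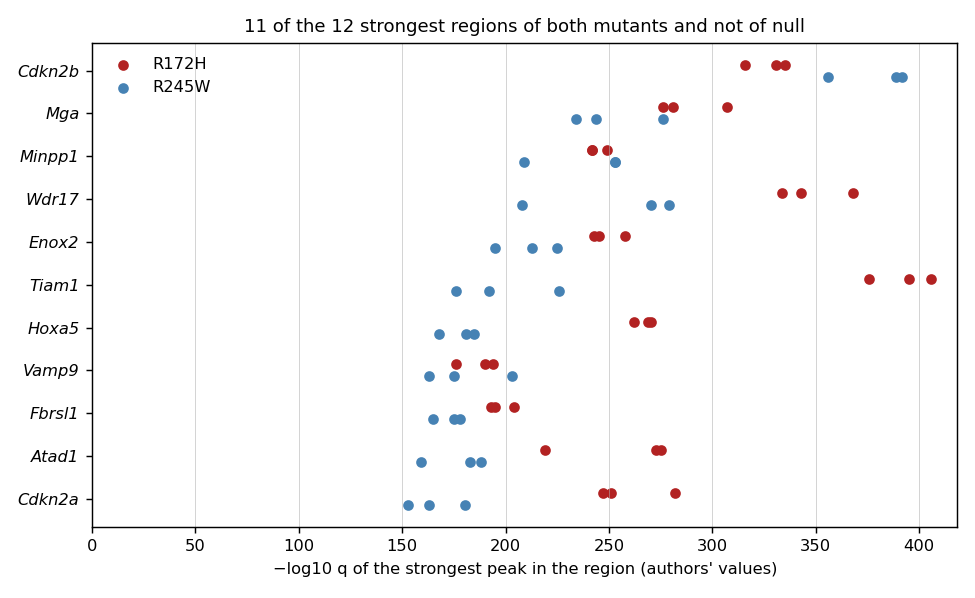
The −log10 q of the strongest peak (the authors' values, x axis) in 11 of the 12 strongest regions called in all mutant libraries and no null library, named by nearest gene, with 1 point per R172H (red) or R245W (blue) library. Cdkn2b is highest in R245W, with 356 to 392, and Tiam1 is highest in R172H, with 376 to 406 against 176 to 226 in R245W.

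Other strong regions belonged to genes of transcription and signalling. Mga, a MAX-binding transcription factor, had 281, 276 and 307 in R172H libraries and 244, 276 and 234 in R245W libraries. Tiam1, an activator of the small GTPase Rac, had 395, 406 and 376 in R172H libraries and 192, 226 and 176 in R245W libraries. At Hoxa5, a homeobox gene of positional identity, the promoter region had 269, 270.5 and 262 in R172H libraries and 168, 185 and 181 in R245W libraries. Tiam1 and Hoxa5 thus had all R172H values above all R245W values, while at Mga the highest R245W value equalled the lowest R172H value.

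Wdr17, a WD-repeat gene, had 343, 334 and 368 in R172H libraries and 279, 270.3 and 208 in R245W libraries. Enox2, a cell surface oxidase gene on the X chromosome, had 243 to 258 in R172H libraries and 195, 225 and 213 in R245W libraries. Vamp9 and Fbrsl1 followed, with lowest percentiles of 87.9 and 87.5. At gene ends the next strongest were Galnt17, a glycosyltransferase gene, at 83.9, the Zfp174 and Zfp597 pair of zinc finger genes at 83.5 and the kinase gene Wnk3 at 82.5. Of the 12 strongest, 8 were also among the 12 strongest at gene ends.

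Fewer copies of the DNA and less opening cannot be told apart in peak lists, so the surroundings of the regions were examined. Each shared region lies in an interval between neighbouring null peaks, which holds no null peak by construction. In all, 3021 such intervals held the regions. A single shared region was held by 2581 intervals, which is 68.3% of the regions. At least 5 were held by 30 intervals, with 227 regions (6%), and 6 of those intervals were on the X chromosome. The same count for the reverse patterns gave 28 intervals with 2.28% of the regions missing from R172H alone, and 3 intervals with 1.78% of the regions missing from R245W alone. The intervals between null peaks had a median of 57.5 kb, against 27.8 and 31.9 kb for those 2 reverse patterns, and a longer interval has room for more regions, so the shares are not directly comparable.

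The Cdkn2a and Cdkn2b regions fell in 1 such interval of 114 kb (chr4:89258356-89372304), with 5 shared regions. It held 5 to 7 peaks in R172H libraries, 8 in each R245W library and 0 in each null library. The chromosome 19 interval of Minpp1, Papss2 and Atad1 spanned 571 kb and held 10 shared regions. It had 18 to 24 peaks in R172H libraries, 22 to 24 in R245W libraries and 0 in null libraries. Promoters of Minpp1, Papss2, an enzyme gene of sulphate activation, and Atad1 were among its shared regions.

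The interval with the most shared regions, on the X chromosome, spanned 2305 kb around Enox2, Igsf1 and Stk26 and held 17 shared regions, with 27 to 36 peaks in R172H libraries, 26 to 28 in R245W libraries and 0 in null libraries. An X interval of 1247 kb held 9 shared regions at the glypican genes Gpc4 and Gpc3 and at Hs6st2, a heparan sulphate sulphotransferase gene, with 26 to 28 peaks in R172H libraries, 23 to 26 in R245W libraries and 0 in null libraries. On chromosome 17 a 1204 kb interval around Epb41l3, a membrane cytoskeleton gene, held 12 shared regions. It had 16 peaks in each R172H library, 26 or 27 in R245W libraries and 0 in null libraries. On chromosome 5 an interval of 914 kb at Caln1, Galnt17 and Auts2 held 14, and one of 796 kb at Hspb8 and Srrm4 held 8. All these stretches are without a null peak by construction, and both mutant lines had many peaks in them.

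**Figure D2:**
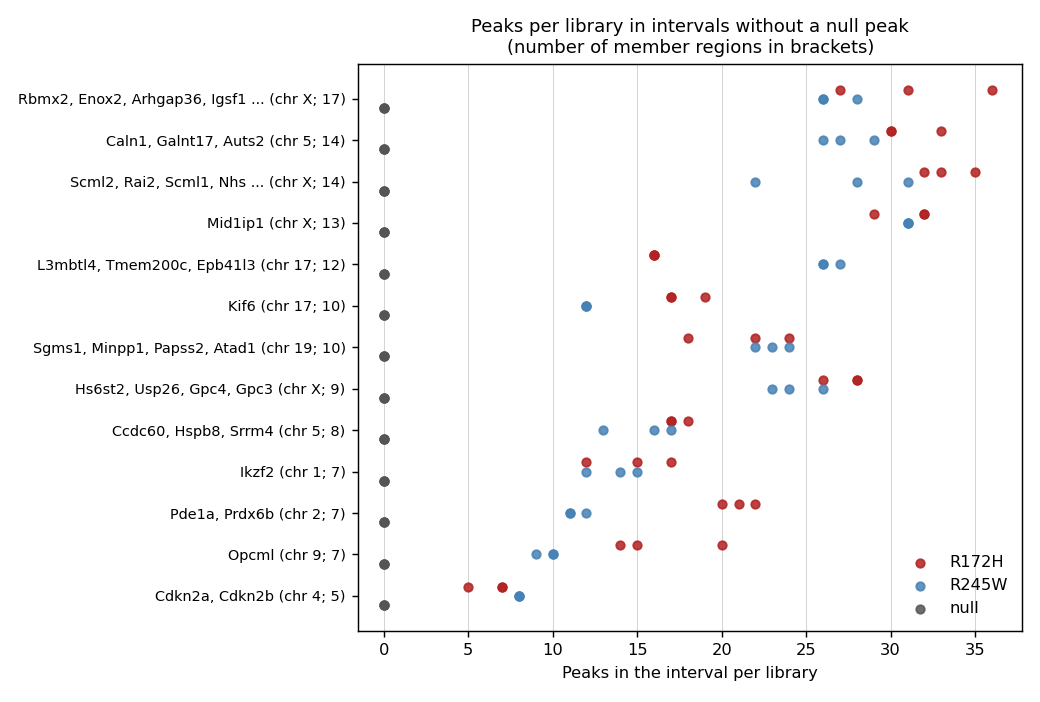
Peaks per library (x axis, 1 point per library) in the 12 intervals between neighbouring null peaks that held 7 or more shared regions, and in the Cdkn2a and Cdkn2b interval, labelled by genes with an end inside, chromosome and number of shared regions. Null libraries (grey) are at 0 by construction, R172H (red) and R245W (blue) libraries range from 5 to 36.

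Runs of neighbouring merged regions that were all of this pattern were short. Of the runs, 3226 were single regions, 207 held 2, 36 held 3, 7 held 4 and 1 held 5. The longest lay at Hspb8, a small heat shock protein gene, and Srrm4, a regulator of neuronal microexon splicing (21.6 kb on chromosome 5). Runs of 4 included one of 37.8 kb inside Epb41l3 and one of 38.5 kb on the X chromosome, 182695 bp from the nearest gene end.

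The X chromosome held the largest share. There 204 shared regions made up 21.3% of the 957 regions called in all 6 mutant libraries, against 8.83% over all chromosomes. On the autosomes the share ran from 4.78% (chromosome 7) to 11.9% (chromosome 6). No shared region lay on Y, where only 6 regions were called in all 6 mutant libraries. Without the X chromosome 3577 regions were left.

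**Figure D3:**
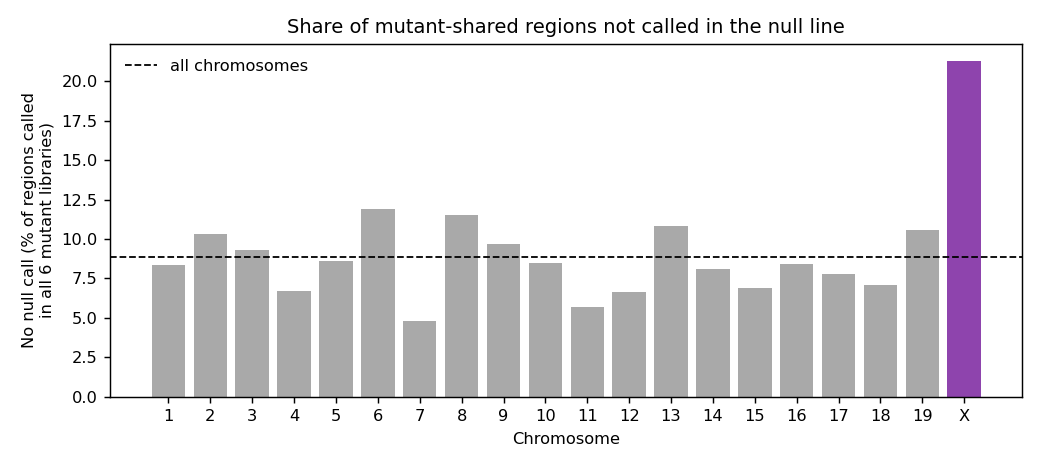
Percentage of the regions called in all 6 mutant libraries that had no null call (y axis) for each chromosome (x axis), with the share over all chromosomes, 8.83%, as a dashed line. The X chromosome stands at 21.3%, the autosomes between 4.78% and 11.9%.

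The ranks of other regions moved with these shares. A call rests on the same −log10 q in the same libraries, so these ranks are not independent of the shares. For regions called in all 9 libraries, peaks were ranked by −log10 q within each library, and the median percentile of each chromosome was taken. On chromosome 8 it averaged 53.7 in the mutant libraries and 48 in the null libraries, on chromosome 6 it averaged 51.4 and 45.9, and on the X chromosome 55.7 and 51.3. On chromosome 7, with the lowest share, it was the other way round, with 48.5 in the mutant libraries and 55.4 in the null libraries. Chromosome 18 had the widest gap, with 45.5 in the mutant libraries and 55.3 in the null libraries, but not the lowest share (7.1%). Across 20 chromosomes the share of shared regions and the mutant minus null difference had a Spearman rho of 0.859 and a Pearson r of 0.655, and across the 19 autosomes 0.847 and 0.848. These correlations are over chromosomes within the same 9 libraries and carry no test.

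The same could be seen locally. Within 50000 bp, 2593 of the 3781 regions had a neighbour that was called in all 9 libraries, 2354 distinct neighbours in all. Their median percentile was 48.5 in the mutant libraries and 44.4 in the null libraries, and 62.7% ranked higher in the mutants. Over all 36473 regions called in all 9 libraries these values were 47.6 and 49.9, and 52.4% ranked higher in the mutants. Neighbours of regions called in R172H only ranked higher in the mutants in 54.9%, and those of regions called in R245W only in 59.3%. Neighbours of regions called in null only did so in 42.3%. What moved the neighbours was not tested.

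The shared regions did not have the same rank in the mutant lines. The calls that chose them rest on the same −log10 q, so these ranks are not independent of the rule. The rule also leaves out regions called in null. Null shared 7717 regions with R245W and not R172H, against 1066 with R172H and not R245W. How much of the difference between the mutant lines follows from the rule was not tested. Percentiles were taken among the 42811 regions called in all 6 mutant libraries, the same set in each library. The median shared region stood at percentile 27, 27.9 and 26.6 in R172H libraries and at 16.4, 16.9 and 16.2 in R245W libraries, so the lines did not overlap. The mean was 27.2 ± 0.651 in R172H and 16.5 ± 0.356 in R245W (SD, n = 3 each), a difference of 10.7 percentile points. An exact permutation test (two-sided) gave p = 0.1, the lowest value possible with 3 libraries against 3, and 0.1 after adjustment over the 3 measures tested. The other regions of the set had medians of 52.5 in each R172H library and 53.7 to 53.8 in R245W libraries.

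Peaks in the shared regions were also wider in R172H. Their median width was 651, 693 and 648 bp in R172H libraries and 600.0, 627 and 616 bp in R245W libraries, again without overlap. The mean was 664 ± 25.2 bp in R172H and 614 ± 13.6 bp in R245W (SD, n = 3 each), a difference of 49.7 bp (exact two-sided permutation p = 0.1, adjusted 0.1). With lists of equal length the difference was 15.5 bp and the exact permutation p was 0.6, so the width difference was not kept at that size. Without R172H replicate 2 it was 23.2 bp. Separate peaks per region averaged 1.01 ± 0.00214 in R172H and 1.02 ± 0.00202 in R245W (SD, n = 3 each), a difference of -0.00476 (exact two-sided permutation p = 0.1, adjusted 0.1). It was -0.00123 (exact permutation p = 0.5) with lists of equal length, -0.000175 (exact permutation p = 0.9) with summit windows and -0.00259 (exact permutation p = 0.1) with a −log10 q of 5 or more. Without R245W replicate 1, 2 or 3 it was -0.00183, -0.00313 or -0.00257. With this number of libraries no such difference could pass a threshold of 0.05.

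**Figure D4:**
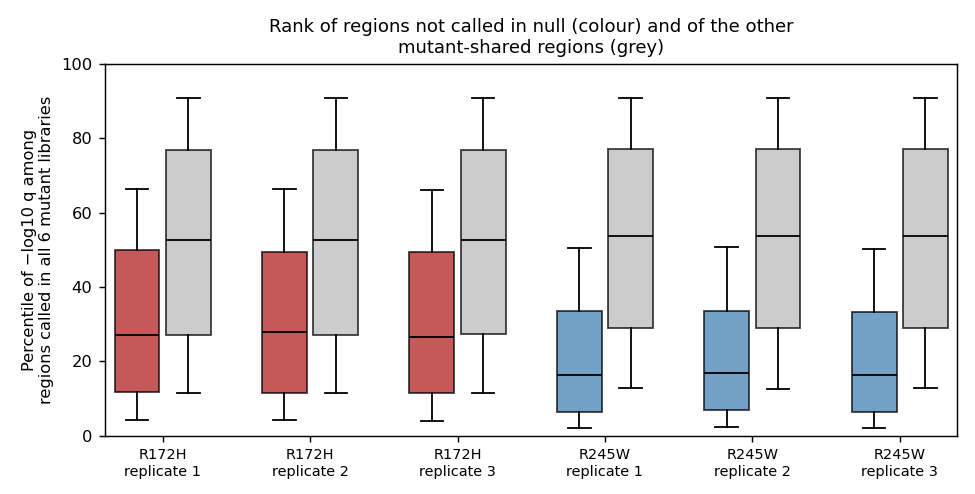
Percentile of −log10 q (y axis) of the shared regions (red for R172H, blue for R245W) and of the other regions called in all 6 mutant libraries (grey), in each mutant library. Boxes show quartiles and median, and whiskers the 10th and 90th percentiles over regions. The median shared region lies between 26.6 and 27.9 in R172H and between 16.2 and 16.9 in R245W.

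Region by region, all 3 R172H percentiles lay above all 3 R245W percentiles in 1904 of the shared regions (50.4%), against a background of 36.6% of the 42811. All R245W percentiles lay above in 792 (20.9%), against a background of 32.4%. The lines overlapped in 1085 (28.7%), against a background of 31%. Across the shared regions the ranks of a pair of libraries had a Spearman rho of 0.943 to 0.944 within R172H, 0.915 to 0.92 within R245W and 0.276 to 0.289 between the lines. Across all 42811 regions rho was 0.98 to 0.981 within R172H, 0.984 within R245W and 0.727 to 0.731 between the lines. It was thus lower across the shared regions within lines too. These are descriptions over regions that share the same libraries, and the rule that chose the shared regions bears on them as on the ranks above.

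The most unequal regions show how far the mutant lines could differ within the shared set. In the one at Emilin1, an elastic fibre protein gene, and the promoter of Khk, the fructokinase gene, −log10 q was 270.2, 279 and 234 in R172H libraries and 6.17, 5.67 and 8.65 in R245W libraries. A region 341112 bp from Hand2, a transcription factor of limb and heart development, had 243, 266 and 238 in R172H libraries and 11, 6.48 and 10.1 in R245W libraries. Regions nearest to Niban3, Ccdc68, Lrmda and Tstd1 were likewise strong in R172H and weak in R245W.

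In the other direction, a region inside Itsn1, an endocytic scaffold gene, had 9.71, 3.09 and 13.6 in R172H libraries and 218, 248 and 232 in R245W libraries. One 66574 bp from Sfrp1, a secreted Wnt antagonist, had 15.3, 10.8 and 12.7 in R172H libraries and 213, 239 and 212 in R245W libraries. Zfp618, Dock3, a Rac activator, Itgb1, the integrin beta 1 gene, and Pnp2, a purine phosphorylase gene, had the other regions of this kind. All these regions were called in every mutant library, but with low values in 1 of the lines.

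Of 17572 protein-coding genes with any region, 2040 (11.6%) had at least 1 shared region, 1750 of them with 1, 228 with 2 and 62 with 3 or more. Only regions assigned within 50000 bp of a gene end were counted, so regions deep inside a long gene could be left out. By this count the most, 5, were found at 9 genes. Among them were Tfpi, the tissue factor pathway inhibitor of blood coagulation, Pdlim1, a cytoskeletal LIM protein gene, Daam2, a formin of Wnt signalling, Uaca, Srrm4, Epb41l3, Aldh1a1 and Hs6st2. Minpp1, Prr5, a subunit gene of the kinase complex mTORC2, Galnt17 and Adam22, a receptor of secreted LGI proteins, had 4 each. Srrm4, Epb41l3, Aldh1a1, Hs6st2, Daam2, Minpp1 and Galnt17 had no assigned region called in all 9 libraries, while Uaca and Prr5 had 4 each. Epb41l3 lay in the chromosome 17 interval with 12 shared regions, not all of which were counted here. Tfpi had 1 shared region at its promoter, with 58.1, 84.2 and 56.7 in R172H libraries and 24.7, 52.2 and 43.3 in R245W libraries. Its strongest lay 11078 bp inside the gene, with 157, 189.7 and 163 in R172H libraries and 133, 148 and 129 in R245W libraries. Trp53 had no shared region.

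Gene groups were read by the shared regions among all regions assigned to their genes, against a background of 2.67% (2420 of 90468). This was done because a gene with many regions more easily has 1 of a given pattern, and the lists differ in this. A gene had a median of 4 regions, and a gene of the collagen and matrix glycoprotein list 15. The counts carry no test, and no list is called particular from them.

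Morphogen pathways were mostly above the background, as was the housekeeping comparison list (3.26%). Wnt ligands had 8 of 145 regions (5.52%), at 6 of 19 genes: Wnt7b with 3, Wnt2, Wnt9a, Wnt9b, Wnt10b and Wnt11. The Wnt2 promoter region had 64.8, 60.5 and 65.2 in R172H libraries and 28, 42.5 and 28.7 in R245W libraries. Wnt receptors and antagonists had 13 of 362 (3.59%). They included Dkk2 and Dkk1, secreted blockers of the Wnt co-receptor, the antagonists Sfrp1, Sfrp5 and Wif1, the agonist Rspo2 and the receptors Ryk, Fzd6 and Fzd9. The Dkk2 promoter region had 68.4, 73.5 and 68.7 in R172H libraries and 69.1, 91.5 and 92.9 in R245W libraries. Its fold over background went the other way, with 8.33, 8.13 and 8.04 in R172H libraries and 6.6, 7.29 and 7.55 in R245W libraries. At the Dkk1 promoter, R172H −log10 q values of 7.54, 7.27 and 7.48 stood below R245W values of 29.2, 20.9 and 18.4, and the fold was also lower in R172H.

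The TGF-beta and BMP list had 15 of 350 regions (4.29%), at 11 of 41 genes. Smad6, an inhibitor of BMP signalling, and Bmp4, a BMP ligand, had 3 each. The Bmp4 region 18715 bp from the gene had 147, 174 and 137 in R172H libraries and 14.9, 12.6 and 16.1 in R245W libraries. The receptor gene Bmpr1b had a gene end region with 102, 110.0 and 95.4 in R172H libraries and 81.4, 109 and 93.1 in R245W libraries. Hedgehog genes had 7 of 139 (5.04%), at the co-receptor Boc with 3, the receptor Ptch1, the effector Gli2 and its inhibitor Sufu. Notch genes had 4 of 160 (2.5%), and the retinoic acid list 7 of 153 (4.58%), 5 of them at Aldh1a1 and 2 at Aldh1a2, both retinaldehyde dehydrogenases. The Aldh1a1 promoter region had 80.3, 87 and 76.4 in R172H libraries and 60.5, 72.4 and 61.1 in R245W libraries, and another, inside the gene's annotated span, had 214, 209 and 221 in R172H libraries and 11, 9.72 and 15.3 in R245W libraries.

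Hox clusters, which set positional identity, had the highest share of the 33 lists, with 8 of 138 regions (5.8%), at Hoxa3, Hoxa5, Hoxb1, Hoxb6, Hoxb8, Hoxc12 and Hoxd11. After Hoxa5 the strongest was near Hoxc12, with 125, 121 and 132 in R172H libraries and 139.8, 168 and 137 in R245W libraries, and the Hoxd11 promoter region was weak, with 13.6, 12.2 and 19.1 in R172H libraries and 7.58, 6.24 and 4.64 in R245W libraries. Limb and skeletal patterning genes had 13 of 396 (3.28%), including Meox1 and Lmx1b with 2 each and Hand1, Hand2, Msx1, Twist2, Zic1, Prrx1 and Prrx2 with 1 each. The Hand2 promoter region had 137, 165 and 160.4 in R172H libraries and 80.6, 85.1 and 71.4 in R245W libraries. Strong and weak regions thus occurred on both lists.

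Lists of adhesion and neural genes were also above. Axon guidance and cell adhesion had 20 of 371 regions (5.39%), of which 5 at Epb41l3, 4 at Opcml, an adhesion molecule gene, and 3 each at Cdh11, the mesenchymal cadherin gene, and Unc5c, a netrin receptor gene. The Opcml promoter region had 167, 149 and 159 in R172H libraries and 7.52, 14.8 and 8.09 in R245W libraries. Neural crest and neuronal genes had 5 of 99 (5.05%), with 2 at Tfap2a. One of those had 15.3, 18 and 26.2 in R172H libraries and 153, 193 and 169 in R245W libraries. Epb41l3 lies in an interval without null peaks, as plotted for the intervals. The 4 Opcml regions lie in another, which ends inside that gene.

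The osteosarcoma tumour suppressor and oncogene list had 12 of 282 regions (4.26%), 5 of them in the Cdkn2a and Cdkn2b interval. Others were at Igf1r, Ccnd3, Fos, Dlg2 and Mycn. A region 40834 bp from Mycn had 132, 125 and 123 in R172H libraries and 8.87, 8.38 and 3.9 in R245W libraries. Cell cycle genes had 4 of 109 (3.67%), at E2f2, Ccnd3, Mki67 and Cdk6. Receptor tyrosine kinases had 7 of 349 (2.01%) and the insulin-like growth factor axis 5 of 179 (2.79%), with Igf1r in both.

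The matrix lists stood near the background by region. Collagens and matrix glycoproteins had 15 of 551 regions (2.72%), although 13 of 36 genes (36.1%) had one. The head-to-head promoters of Col4a1 and Col4a2, which encode the chains of basement membrane collagen IV, were in 1 region (chr8:11311655-11313792) with 214, 208 and 225 in R172H libraries and 64.2, 56.5 and 50.2 in R245W libraries. The Efemp1 promoter, of a fibulin gene, had 87.2, 105 and 84.8 in R172H libraries and 74.6, 69.6 and 79.3 in R245W libraries. Matrix proteases and inhibitors had 4 of 178 (2.25%), cytokines and chemokines 8 of 214 (3.74%), 3 of them at Cxcl12, and chemokine and cytokine receptors 4 of 151 (2.65%). Interferon and antigen presentation genes had 2 of 112 (1.79%).

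By region, the lists of p53 targets and of mutant p53 targets were below the background. The p53 target list had 1 of 144 regions (0.694%), at Perp, an effector of p53-dependent cell death, 18912 bp from the gene. It had 15.3, 7.95 and 11.9 in R172H libraries and 62.4, 52.6 and 56.3 in R245W libraries. Genes reported elsewhere as targets of mutant p53 had 4 of 260 (1.54%), among them Id4, Ets1 and Egr1. By gene these were 4 of 31 (12.9%), against 11.6% of all genes, and 1 of 31 (3.23%), against 8.57%, with lists of equal length. AP-1 genes had 3 of 114 (2.63%), the list of Runx, TEAD and other partners 5 of 267 (1.87%) and mesenchymal transition factors 2 of 137 (1.46%).

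Cell type markers gave few regions. The osteoblast lineage had 3 of 218 (1.38%), at Postn, Sost and Alpl, none at a gene end. Chondrocyte markers had 1 of 81 (1.23%), beside Sox9, smooth muscle and pericyte markers 4 of 130 (3.08%), and epithelial markers 1 of 99 (1.01%), at Krt19. The Krt19 region was weak, with a lowest percentile of 4.56. No epithelial marker had a shared region with lists of equal length or with a −log10 q of 5 or more. Endothelial markers had 2 of 92, macrophage and osteoclast markers 1 of 84 (1.19%), skeletal muscle markers 1 of 71 (1.41%) and adipocyte markers 3 of 96 (3.12%). Of 14 endothelial markers, 2 were open at an end in all 3 libraries of R172H, 5 in R245W and 2 in null, and Pecam1 and Cdh5 in none of the lines. Of 16 macrophage and osteoclast markers, 4 were open in R172H, 6 in R245W and 6 in null, and the leukocyte gene Ptprc in none. Housekeeping genes, a comparison list, had 3 of 92 (3.26%).

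**Figure D5:**
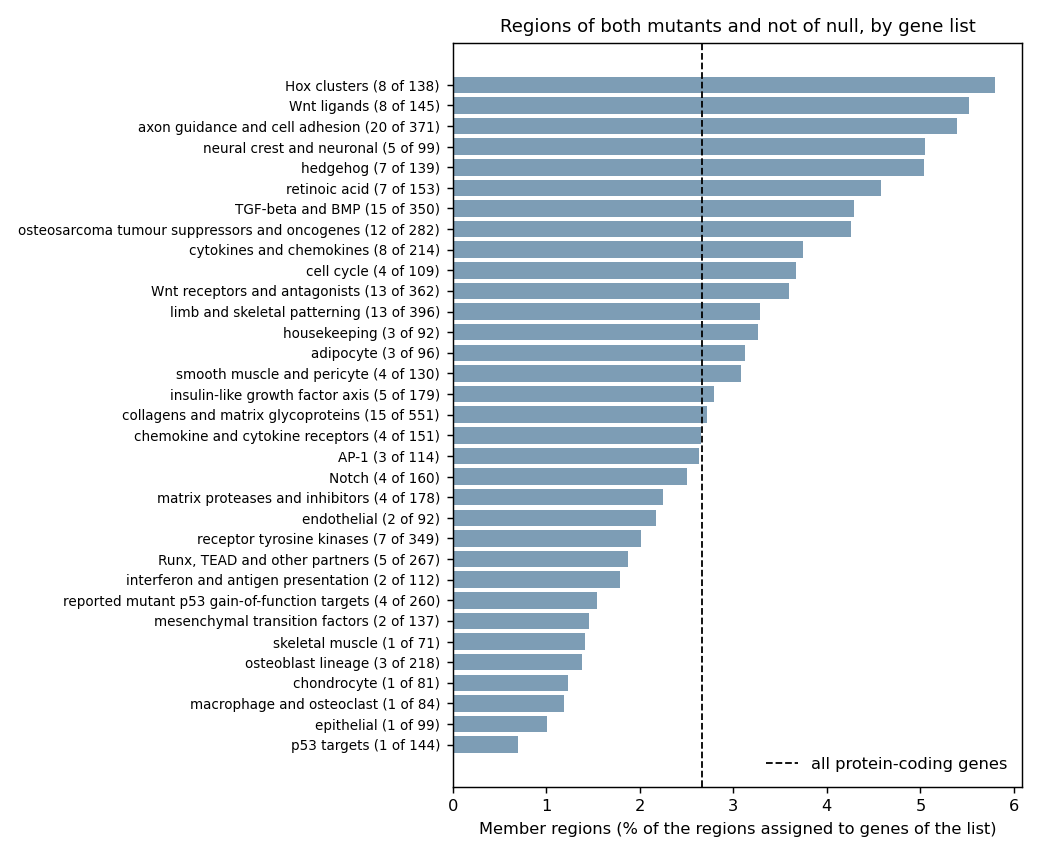
Shared regions as a percentage of all regions assigned to the genes of each of 33 lists (x axis), with the counts in brackets and the share over all protein-coding genes, 2.67%, as a dashed line. Hox clusters (5.8%) and Wnt ligands (5.52%) are at the top, and p53 targets (0.694%) at the bottom.

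In the RefSeq table, 6 of 1005 miRNA hairpins lay in shared regions, out of 181 in any region. This is near the share of all merged regions that were shared regions, 3.04%, so hairpins were no feature of the set. Mir344c and Mir344, neighbours on chromosome 7, were in separate shared regions (chr7:61836997-61837836 and chr7:61877433-61878333) with lowest percentiles of 46.8 and 24.7. Their mature miRNAs are printed because they pairwise share a seed (bases 2 to 8, in capitals), which sets the mRNAs a miRNA can pair with. They lie on the minus strand.
miR-344c-3p: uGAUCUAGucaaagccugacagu
miR-344-3p: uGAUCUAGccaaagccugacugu
miR-344c-5p: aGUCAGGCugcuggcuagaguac
miR-344-5p: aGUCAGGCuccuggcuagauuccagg
The 3p forms share the seed GAUCUAG and the 5p forms GUCAGGC. The other hairpins were those of miR-5103, miR-6347, miR-3965 and miR-9768, with lowest percentiles of 31.6, 23.7, 2.4 and 8.08. Peak lists do not show whether any of these miRNAs was transcribed.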

How the data were processed

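Per the submitters' processing notes, reads were handled with Bowtie 1.1.2, Trimmomatic 0.33, bcl2fastq 2.17, deepTools and MACS2 2.1.0 on build GRCm38. The sources used here do not give settings, filters or a Tn5 shift. The authors deposited 1 peak list per library, whose columns hold a score, −log10 p-values, −log10 q-values and the fold ratio of the summit to its background. The lowest −log10 q was 1.3, which matches a deposited threshold of 0.05 on q. No read depth is given.

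Lists were merged and regions called as described in the report. Where a library had several peaks in a region, the strongest gave its −log10 q. Regions went to the protein-coding gene whose end lay nearest, up to 50000 bp, in the RefSeq table of GRCm38.p6, which gives spans without strand or exons, and a gene end window was 1000 bp. Of 778 entries on 33 gene lists, 4 were not found in that table. Promoter and miRNA sequences came from RefSeq tables of the same build. No genome was used, so no sequence of regions away from promoters was examined. Motifs were exact letters on either strand. The p53 half-site was searched by its consensus.

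Libraries were compared by exact two-sided permutation tests (3 against 3) with Benjamini-Hochberg adjustment over 3 tests. Members, gene lists and tests were chosen with earlier results of these data known. Named genes followed a rule: the 12 genes with the most shared regions, the 12 strongest regions overall and at gene ends, the longest runs, up to 6 genes per list, the 6 most unequal regions in each direction, and Trp53, leaving out genes without a proper name. Some items that the rule names are not reported here. Pecam1, Cdh5, Ptprc and the mature bone genes were named outside it after their values were seen, as were genes of the long intervals without null peaks and the miRNAs. In simulated lists of both mutants against null with 124230 regions, 200 of 200 implanted members were found, with 0 others. Each simulated peak lay inside its own merged region, without noise or missed calls. The simulation therefore checks the merging and counting only, not how well real lists call regions. The alternatives varied the −log10 q (at least 5), list length, the peak unit (summits with 250 bp either side), the number of libraries required, the X chromosome, the gene end window, the distance to a null peak (500 bp), the replicate block and the set of libraries. Software was matplotlib 3.10.9, scipy 1.17.1, pandas 2.3.3, numpy 2.4.6 and Python 3.11.15.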

Additional observations from a re-analysis of the deposited data

How the results depend on the processing

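The number of shared regions was 3608 with a −log10 q of 5 or more, 2710 with lists of equal length, 3802 with summit windows, 5638 with calls in 2 of 3 libraries and 3722 with no null peak within 500 bp. Of the 3781 regions, 81.1%, 71%, 95.7%, all and 98.4% were kept under these settings. Leaving out 1 library at a time gave 3962 to 4184 regions. Leaving out the regions in intervals that held 5 or more, an alternative chosen after seeing the data, left 3554. The share at gene ends, 11.7%, was 10.2% with a gene end window of 500 bp and 14.9% with 2000 bp, since the window sets what counts, and 11.4 to 11.8% with a library left out. With a library left out, the R172H minus R245W difference was 23.2 to 74.5 bp for peak width, 9.94 to 11.2 percentile points for rank and -0.00712 to -0.00183 for peaks per region. Equal replicate numbers did not pair the libraries. Deviations from the line means across the shared regions had correlations of -6.26e-05, 0.00787 and 0.0149 for libraries 1, 2 and 3. With the replicate block the differences were 49.7 bp, 10.7 points and -0.00476, each with an exact permutation p of 0.25, the smallest that 3 pairs allow. The summit windows have a fixed width, so peak width has no value there. Peak lists hold no depth, so an uncalled region can hold cuts below the threshold.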
